A study of Mus musculus with 6 samples.

Results

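The genes described here are the type I interferon-stimulated effector genes of a macrophage panel, taken as every gene whose symbol begins with Ifit, Oas, Isg, or Mx and a digit, or is Rsad2, Usp18, Bst2, Ifih1, Ddx58 or Ifi44. Of the 754 genes in the table, 6 met this rule. They were Isg15, Mx1, Mx2, Usp18, Ifit1bl1 and Ifit1bl2, and the other symbols had no row. They were measured in 6 samples of F4/80+ CD11b+ macrophages sorted from the peritoneal lavage of adult C57BL/6J mice bearing ID8 tumors, a transplanted mouse ovarian cancer line grown in the peritoneal cavity. In 3 samples the mice had received PBS and in 3 samples IRF5-NPs, which are nanoparticles loaded with mIRF5 mRNA, both as 2 intraperitoneal doses on days 1 and 5. Each IRF5-NP dose held 30 µg of mRNA. All mice carried tumors, and treatment began 7 weeks after the tumor cells were injected. The study's methods give another dose and another tumor age, and describe particles that carry the mRNA of the kinase IKKβ as well. For the ovarian tumor model they name ID8 cells that express VEGF and albino mice of a C57BL/6J substrain. PBS carries neither mRNA nor particle, so that effects of the particle and of its cargo cannot be told apart. The labels do not say whether the samples of a group came from separate animals, and p-values measure the spread between these samples only.

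Type I interferons bind the receptor pair IFNAR1 and IFNAR2, whose kinases activate a transcription factor complex that binds interferon-stimulated response elements in promoters and switches on antiviral genes. Macrophages keep a low level of this program through small amounts of interferon beta. IRF5, the delivered factor, acts downstream of Toll-like receptors and drives inflammatory cytokine genes. Isg15 encodes a ubiquitin-like protein that is coupled to other proteins during the response. Usp18 encodes the protease that removes ISG15 from proteins and also restrains signaling at IFNAR2. Mx1 and Mx2 encode antiviral GTPases, and both loci are defective in C57BL/6J and are annotated by RefSeq as transcribed pseudogenes, so that here their RNA is a readout of the response and not of a working protein. Ifit1bl1 and Ifit1bl2 belong to the IFIT family of RNA-binding proteins with tetratricopeptide repeats.

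The promoters of the 3 members that have a RefSeq promoter entry are shown with the core of the response element. Whether these elements bear on the counts of the members was not tested. Each stretch is the 120 bases before a transcription start in RefSeq (GRCm38.p6), 5′ to 3′ on the strand of the gene, which is the minus strand in all 3, with matches in capitals. A match is GAAA, any 2 bases and GAAA again, searched on both strands (TTTC, any 2 bases and TTTC on the opposite strand), and matches may overlap.
Isg15, chr4:156200819-156200938: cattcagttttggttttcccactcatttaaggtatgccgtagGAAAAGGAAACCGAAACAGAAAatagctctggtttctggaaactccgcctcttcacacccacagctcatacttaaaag
Ifit1bl1, chr19:34601969-34602088: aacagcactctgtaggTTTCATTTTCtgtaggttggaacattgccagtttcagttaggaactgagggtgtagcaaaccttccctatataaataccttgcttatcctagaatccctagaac
Ifit1bl2, chr19:34640744-34640863: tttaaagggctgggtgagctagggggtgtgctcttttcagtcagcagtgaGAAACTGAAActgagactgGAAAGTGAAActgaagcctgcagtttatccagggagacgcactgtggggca
Isg15 had 3 overlapping matches, which began 78, 72 and 66 bases before the start. Ifit1bl1 had 1 match, on the opposite strand, 104 bases before the start, and Ifit1bl2 had 2 matches, at 70 and 51 bases. RefSeq gives a further start for both Ifit genes, with 1 match, 23 bases before it, for Ifit1bl1 and 0 for Ifit1bl2. A match within 250 bases before the start was found at 978 of all 32851 starts in the table (2.98%). A match describes the letters only. The RefSeq promoter table used here has no entry for Mx1, Mx2 and Usp18.

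The counts came from the NanoString nCounter assay, in which a color-coded probe is counted for each transcript without amplification. The deposited values are normalized counts. Within a tolerance of 0.01 normalized counts, all 754 gene values of a sample were whole multiples of 1 factor, and the depth, background and chi-square given here rest on the whole counts so recovered. The factor was 1.04, 1.03 and 1.25 in PBS replicates 1, 2 and 3, and 0.952, 1.10 and 2.60 in IRF5-NP replicates 1, 2 and 3. Divided by it, the gene values summed to 1830318, 1603281 and 1302733 counts in the PBS samples and to 1293665, 1598272 and 683472 counts in the IRF5-NP samples. The background of a sample was set 2 SD above the mean of its 8 negative controls and multiplied by the same factor, which gave 37.8, 29.8 and 28.1 normalized counts in the PBS samples and 37.2, 25.6 and 79.4 in the IRF5-NP samples. The low depth of IRF5-NP replicate 3 therefore gave it the highest background. Of the 6 members, Isg15, Mx1 and Usp18 lay above the background in every sample, Mx2 in 5 samples, Ifit1bl1 in 3 and Ifit1bl2 in none. PBS replicates 2 and 3 differed by about as much as sampling noise gives. Over all genes their chi-square divided by its degrees of freedom was 1.07, against 179 and 158 between either of them and PBS replicate 1. They may therefore be 1 library, and what is said of PBS replicates 2 and 3 may rest on 1 sample. Their log2 values were averaged and entered as 1 sample, and the comparison thus has 2 PBS samples and 3 IRF5-NP samples.

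With all samples, none of the 6 members differed between IRF5-NPs and PBS past the threshold, and for all of them but Ifit1bl2 the PBS samples themselves lay far apart. For those 5 members PBS replicates 2 and 3 were high and PBS replicate 1 was as low as the IRF5-NP samples or lower. Without PBS replicate 1, Isg15, Mx1 and Mx2 were lower with IRF5-NPs past the threshold, by 3.13 to 5.06 times. The outcome for this group of genes thus rested on 1 control sample.

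Isg15 had 264, 1498 and 1612 normalized counts in PBS replicates 1, 2 and 3, and 368, 286 and 273 in IRF5-NP replicates 1, 2 and 3. PBS replicates 2 and 3 were the high samples, PBS replicate 1 was the lowest of all 6, and the groups overlapped. The mean was 909 ± 912 normalized counts with PBS (SD, n = 2) and 309 ± 51.9 with IRF5-NPs (SD, n = 3). The log2 difference of IRF5-NPs minus PBS was -1.06 (standard error 0.63, 95% interval -2.53 to 0.41, limma adjusted p = 0.369), which is within the spread between the PBS samples. Without PBS replicate 1 it was -2.34 (standard error 0.26, 95% interval -2.97 to -1.71, limma adjusted p = 0.00736), or 5.06 times lower. There the single PBS sample, the mean of replicates 2 and 3, is taken to have the same spread as the IRF5-NP samples. All differences and folds here are on the scale of log2 of the normalized count plus 1, which understates changes of low genes.

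Mx1 had 96.4, 490 and 471 normalized counts in the PBS samples and 121, 118 and 107 in the IRF5-NP samples. As for Isg15, PBS replicate 1 was the lowest sample, PBS replicates 2 and 3 were the highest, and the groups overlapped. The IRF5-NP samples were close together, at 115 ± 7.58 (SD, n = 3), while the PBS mean was 288 ± 272 (SD, n = 2). IRF5-NPs minus PBS gave -0.90 on the log2 scale (standard error 0.58, 95% interval -2.25 to 0.45, limma adjusted p = 0.412) with all samples. It was -2.05 (standard error 0.25, 95% interval -2.66 to -1.44, limma adjusted p = 0.00855) without PBS replicate 1.

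Mx2, whose locus lies beside that of Mx1, had 59.1, 201 and 193 normalized counts in the PBS samples and 68.5, 56.2 and 62.4 in the IRF5-NP samples. Here PBS replicate 1 lay within the range of the IRF5-NP samples, and the value of IRF5-NP replicate 3 was below the background of that sample. The PBS mean was 128 ± 97.3 (SD, n = 2) and the IRF5-NP mean 62.4 ± 6.16 (SD, n = 3). On the log2 scale IRF5-NPs differed from PBS by -0.79 (standard error 0.47, 95% interval -1.89 to 0.31, limma adjusted p = 0.378) with all samples and -1.65 (standard error 0.30, 95% interval -2.39 to -0.91, limma adjusted p = 0.0349) without PBS replicate 1.

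Usp18 had 41.5, 258 and 254 normalized counts in the PBS samples and 112, 122 and 125 in the IRF5-NP samples. PBS replicate 1 was far below every other sample and just above its own background, and the IRF5-NP samples lay between it and the other PBS samples. The mean was 149 ± 152 with PBS (SD, n = 2) and 120 ± 6.58 with IRF5-NPs (SD, n = 3). The log2 difference was 0.21 (standard error 0.65, 95% interval -1.30 to 1.71, limma adjusted p = 0.892) with all samples. Without PBS replicate 1 its sign turned, to -1.09 (standard error 0.25, 95% interval -1.71 to -0.47, limma adjusted p = 0.0753), which did not pass the threshold either.

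Ifit1bl1 had 23.9, 126 and 111 normalized counts in the PBS samples and 35.2, 32 and 39.0 in the IRF5-NP samples. It lay above the background in PBS replicates 2 and 3 and in IRF5-NP replicate 2, and PBS replicate 1 was again the lowest sample, so that its differences rest partly on values below background. Its log2 difference was -0.59 (standard error 0.60, limma adjusted p = 0.635) with all samples and -1.72 (standard error 0.36, 95% interval -2.59 to -0.85, limma adjusted p = 0.0578) without PBS replicate 1. Ifit1bl2 had 12.4, 12.4 and 12.5 normalized counts in the PBS samples and 13.3, 6.61 and 15.6 in the IRF5-NP samples. These values are below the background of each sample, so that a difference was not detectable at this depth. Whether either probe also binds transcripts of other Ifit genes was not tested.

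**Figure D1:**
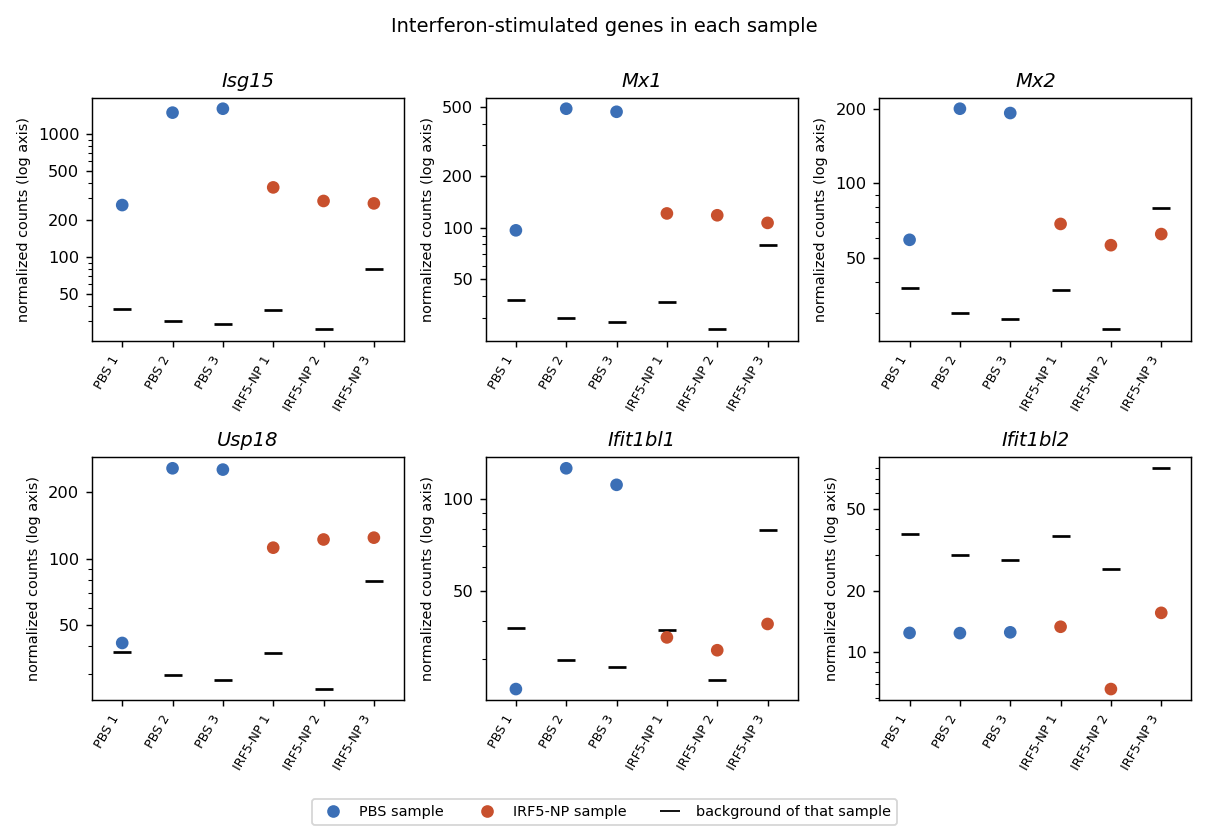
Normalized counts of the 6 interferon-stimulated genes (log axis) in each of the 3 PBS samples and 3 IRF5-NP samples, with the background of each sample as a dash. For Isg15, PBS replicates 2 and 3 lie at 1498 and 1612, and PBS replicate 1, at 264, lies just below the IRF5-NP samples at 273 to 368. Mx1, Mx2, Usp18 and Ifit1bl1 also have PBS replicates 2 and 3 on top and PBS replicate 1 among or below the IRF5-NP samples, while Ifit1bl2 stays below the background.

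As a group, 0 of 6 members passed the adjusted threshold in either direction with all samples, beside 7.03% of all 754 genes that were lower past it and 2.52% that were higher. At an unadjusted p under 0.05, limma counted 0 of the 6 members as lower, where 15.6% of all genes were, and the methods' t-test counted 0 as well. The median log2 difference of the members was -0.69, beside -0.03 over all genes. Without PBS replicate 1, 3 of the 6 passed as lower and 0 as higher, beside 4.24% of all genes that were lower and 0.398% that were higher, and the median of the members was -1.68 beside 0.05 over all genes. With any other sample left out, 0 members passed, and the median lay between -0.72 and -0.62. PBS replicates 2 and 3 are nearly the same, so that leaving out either of them changed little by construction, and the 3 IRF5-NP samples are the other samples whose weight this examines. Among all genes 7.82% were then lower and 3.18% higher without PBS replicate 2, and 7.69% and 2.79% without PBS replicate 3. Among the IRF5-NP samples, these shares were 4.51% and 3.05% with replicate 1 left out, 4.64% and 0.796% with replicate 2 left out, and 2.52% and 0.265% with replicate 3, the shallow sample, left out. Shifting each sample to a common median over all genes raised every difference by 0.24, and the median of the members was then -0.45, with 4.77% of all genes lower and 5.57% higher. With quantile normalization it was -0.62, with 5.31% of all genes lower and 4.64% higher, and 0 members passed with either scaling.

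**Figure D2:**
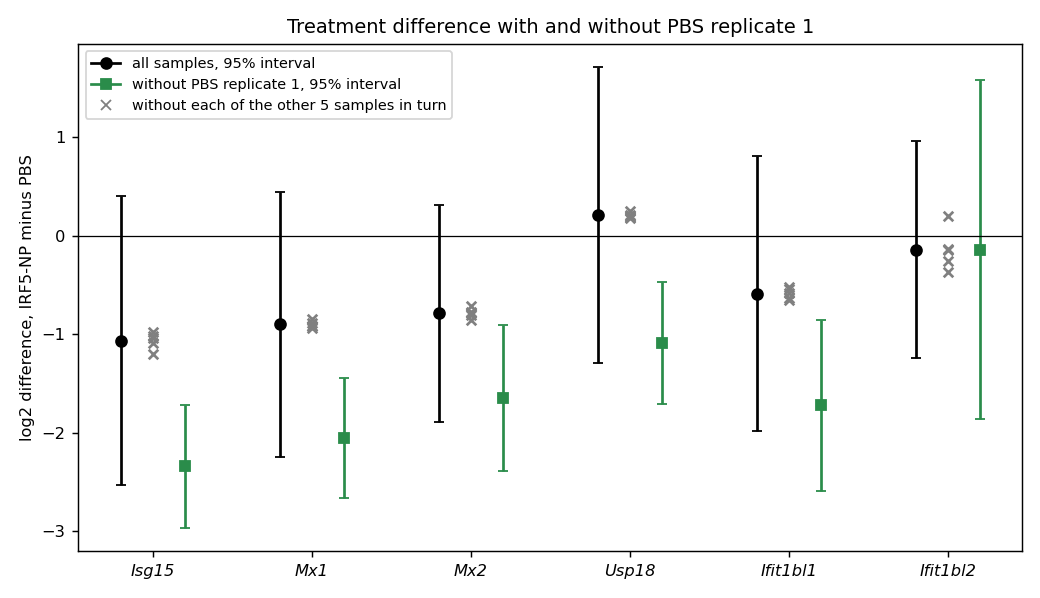
Log2 difference of IRF5-NPs minus PBS for each gene with all samples (black, 95% interval), without PBS replicate 1 (green, 95% interval) and without each of the other 5 samples in turn (gray crosses). The crosses stay near the black points, whereas the green point of Isg15 is at -2.34 against -1.06, and that of Usp18 lies on the other side of 0, at -1.09 against 0.21.

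The PBS samples were then compared with each other. Usp18 was 6.05 times higher in PBS replicates 2 and 3 than in PBS replicate 1, Isg15 5.86 times, Mx1 4.94 times and Mx2 3.29 times. Ifit1bl1 was not above the background in PBS replicate 1 and was at least 3.08 times higher in the other PBS samples, taken against that background. At least 2-fold lower values in PBS replicate 1 were thus seen for 5 of the 6 members, and for 5.24% of the 630 genes above the background in any sample. Another 6.67% of these genes were at least 2-fold higher in PBS replicate 1. The median difference of PBS replicate 1 minus the other PBS samples over these genes was 0.08 on the log2 scale, with 5% of them below -1.01 and 5% above 1.09. In the order of these 630 differences from the lowest up, Serpinb2 was at place 1 with -2.61, and Usp18, Isg15 and Mx1 took places 2 to 4. Ifit1bl1 followed with a value below the background. Olr1, Il6, Serpinb7, Cxcl10 and Alox15 came next, and Mx2 was at place 11. With no further PBS sample, this distance has no replicate check.

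**Figure D3:**
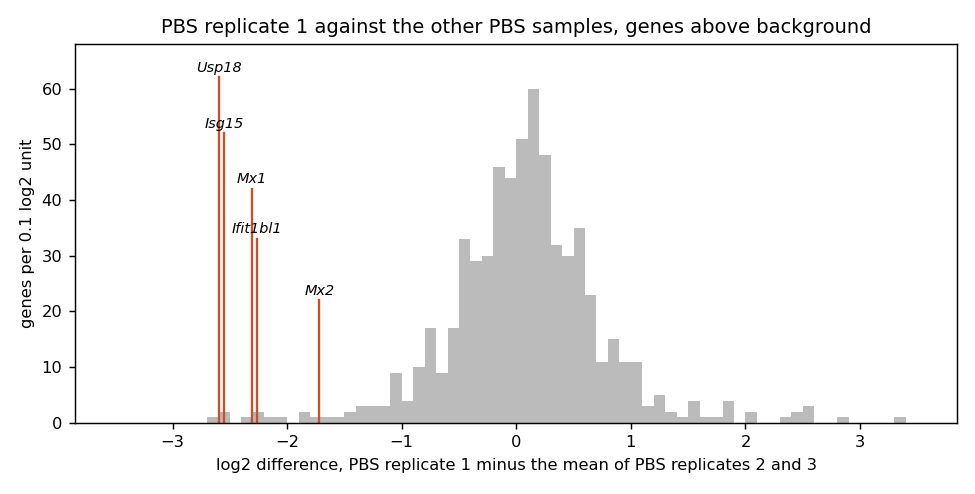
Number of genes by their log2 difference between PBS replicate 1 and the mean of PBS replicates 2 and 3, for the 630 genes above the background in any sample (gray bars). The red lines mark 5 interferon-stimulated genes, which lie between -2.60 and -1.72, in the low tail of a distribution with a median of 0.08.

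Other properties of PBS replicate 1 differed from those of the other PBS samples, and their part in the result was not tested. It had the highest total count, at 1830318, and the lowest count of the 6 positive control probes, 40675 against 86435 and 96743 in the other PBS samples and 67499 to 113708 in the IRF5-NP samples. The sorted cells were checked against lists of cell type markers. Of the macrophage markers 6 of 6 had a row and all lay above the background in every sample, with the highest normalized counts for Itgam and Cd68. They summed to 63549, 60779 and 59819 normalized counts in the PBS samples and to 48305, 100854 and 95304 in the IRF5-NP samples. Of these, Mertk passed as lower (-1.23, limma adjusted p = 0.0218), and it was at -0.89 (limma adjusted p = 0.0741) without PBS replicate 1. For neutrophils 8 of 10 markers had a row, and these summed to 7183 in PBS replicate 1, to 2312 and 2261 in the other PBS samples, and to 2586, 1591 and 1876 in the IRF5-NP samples. Their most abundant gene was S100a8, while Ly6g, the defining marker, exceeded the background in 1 sample and Camp in none. Mmp8, which was below the background in IRF5-NP replicates 1 and 3, passed as lower (-1.86, limma adjusted p = 0.0158) and Csf3r as higher (0.88, limma adjusted p = 0.0459), and neither passed without PBS replicate 1 (-1.44, limma adjusted p = 0.103, and 0.91, limma adjusted p = 0.122). For resident peritoneal macrophages 6 of 10 markers had a row, and these summed to 23856, 50952 and 49459 in the PBS samples and to 79018, 120889 and 114239 in the IRF5-NP samples, with Fn1 as the most abundant. With all samples 3 of these 6 rose with IRF5-NPs past the threshold, where 2.52% of all genes did, and 0 without PBS replicate 1, where 0.398% did. Timd4 was at 2.48 with all samples and 2.14 without PBS replicate 1, Cxcl13 at 2.01 and 1.99, and Selp at 2.19 and 1.38. Plasmacytoid dendritic cells are a main source of interferon alpha, and 2 of 8 of their markers, Ccr9 and Klk1, had a row. They summed to 45.6, 57.9 and 48.8 in the PBS samples and to 39.0, 50.7 and 104 in the IRF5-NP samples, but Ccr9 exceeded the background in 2 samples and Klk1 in 1, and neither did in IRF5-NP replicate 3. For monocytes 4 of 7 markers had a row, and these summed to 20493, 28332 and 27791 in the PBS samples and to 5037, 5165 and 5397 in the IRF5-NP samples, with Chil3 as the most abundant. Chil3 passed as lower with all samples (-5.23, limma adjusted p = 0.00018) and without PBS replicate 1 (-5.46, limma adjusted p = 0.00404). For conventional dendritic cells 5 of 9 markers had a row, 0 passed, and these summed to 244, 230 and 237 in the PBS samples and to 181, 129 and 184 in the IRF5-NP samples, with Ccr7 as the most abundant. None of these 5 exceeded the background in every sample, and in IRF5-NP replicate 3 all were below it. The B cell marker Ms4a1, alone of 5 with a row, had 25.9, 18.6 and 16.3 normalized counts in the PBS samples and 50.5, 60.6 and 75.4 in the IRF5-NP samples and exceeded the background in 2 samples. It passed as higher (1.49, limma adjusted p = 0.0351), and was at 1.76 (limma adjusted p = 0.0738) without PBS replicate 1, but it was below the background in all 3 PBS samples and in IRF5-NP replicate 3, so that neither is a measured size. Among T and NK cell markers Nkg7 alone had a row and lay below the background in every sample, and the tumor and mesothelial cell markers had none. Each sample measures many cells together, and fewer cells of a kind cannot be told apart from less RNA per cell.

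Against PBS replicate 1 on its own, Isg15, Mx1, Mx2 and Usp18 were not lower with IRF5-NPs, and Ifit1bl1 was not above the background in PBS replicate 1. The mean of the IRF5-NP samples minus PBS replicate 1 was 0.21 for Isg15, 0.25 for Mx1, 0.07 for Mx2 and 1.51 for Usp18 on the log2 scale. The same held between the samples numbered 1 in both groups, where IRF5-NP minus PBS was 0.48 for Isg15, 0.32 for Mx1, 0.21 for Mx2 and 1.42 for Usp18. Between the samples numbered 2 and 3 the difference had the opposite sign, at -2.47 for Isg15, -2.09 for Mx1, -1.72 for Mx2 and -1.04 for Usp18. These values are descriptions with 1 sample on at least 1 side. PBS replicates 2 and 3 were above every IRF5-NP sample for 5 of the 6 members and for 26.3% of all genes. For Isg15, Mx1, Usp18 and Ifit1bl1, PBS replicate 1 was in addition below every IRF5-NP sample. For Ifit1bl1 this order rests on values below the background, so that it is not a measured one. The arrangement was found for 1.99% of all genes and was picked out after the values were seen. The IRF5-NP samples showed no comparable split. Over all genes IRF5-NP replicate 1 stood apart from IRF5-NP replicates 2 and 3, with a ratio of chi-square to degrees of freedom of 97.7 and 54.0 against 7.07 between the latter, yet the SD over the 3 samples was 51.9 normalized counts on a mean of 309 for Isg15 and 6.58 on 120 for Usp18.

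The members did not keep one ratio to each other. Within a sample, counts relative to Isg15 do not depend on the scaling between samples, and they were examined after the values were seen and are given with no test. Usp18 stood at 15.7%, 17.2% and 15.8% of the Isg15 value in the PBS samples, although PBS replicate 1 had much less of both. It stood at 30.5%, 42.9% and 45.7% in the IRF5-NP samples, all above every PBS sample. With the mean of the negative controls subtracted it was 8.66%, 16% and 14.8% in the PBS samples and 26.5%, 39.0% and 35.0% in the IRF5-NP samples, again without overlap. Mx1 stood at 36.5%, 32.7% and 29.2% of Isg15 in the PBS samples and at 32.8%, 41.3% and 39.0% in the IRF5-NP samples, which overlapped. Mx2 was at 22.4%, 13.4% and 12% with PBS and at 18.6%, 19.7% and 22.9% with IRF5-NPs, with PBS replicate 1 among the IRF5-NP samples. Ifit1bl1 was at 9.02%, 8.43% and 6.91% with PBS and at 9.56%, 11.2% and 14.3% with IRF5-NPs, without overlap as deposited, although its values lay above the background in 3 samples only. With the negative controls subtracted it was 1.43%, 7.12% and 5.80% with PBS and 4.31% and 5.25% in IRF5-NP replicates 1 and 2, which overlapped, and IRF5-NP replicate 3 had no value above 0. Usp18 was thus the member that separated the treatments on both scales, with PBS replicate 1 on the PBS side. The same separation was seen for 14.6% of the 480 genes other than Isg15 and Usp18 above the background in every sample, Irf7 among them, so that it is not particular to Usp18.

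**Figure D4:**
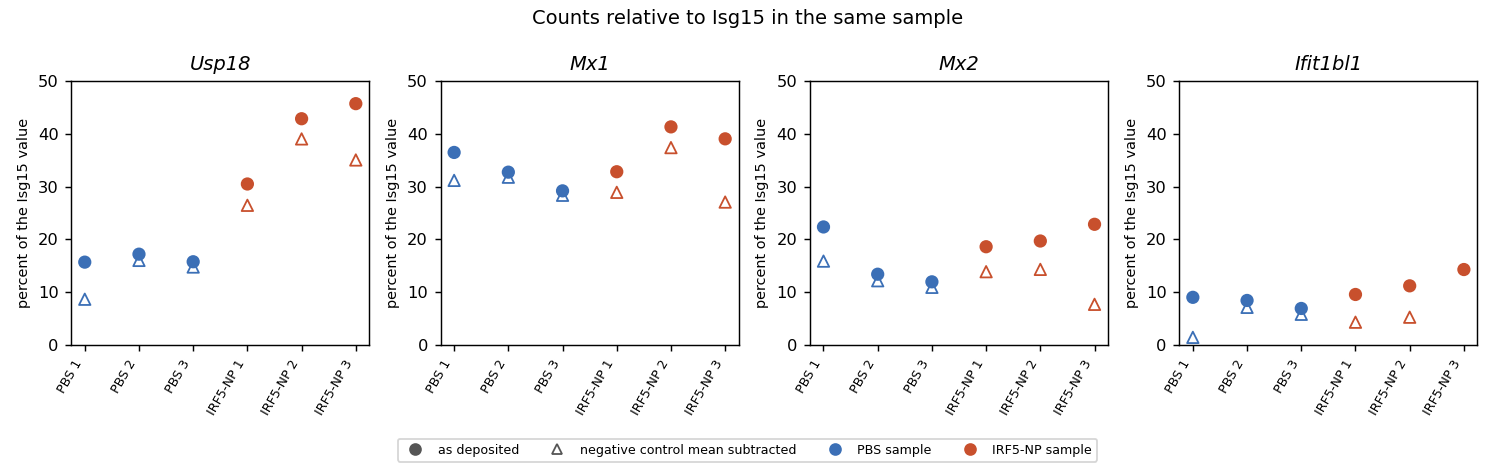
Normalized counts of Usp18, Mx1, Mx2 and Ifit1bl1 as a percent of Isg15 in the same sample, for each PBS and IRF5-NP sample, as deposited (filled circles) and after subtraction of the mean of the negative controls (open triangles). As deposited, Usp18 lies between 15.7% and 17.2% in the PBS samples and between 30.5% and 45.7% in the IRF5-NP samples. After subtraction it lies between 8.66% and 16% in the PBS samples and between 26.5% and 39.0% in the IRF5-NP samples. Mx1 and Mx2 overlap, and Ifit1bl1 overlaps after subtraction.

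The interferon pathway outside these members was described from lists of ligands, receptors, signaling genes, sensors, regulatory factors, other interferon-induced genes and type II interferon genes. Of these genes 38 had a row. With all samples 7 of the 38 were lower past the threshold and 0 higher, where 7.03% and 2.52% of all genes were, and their median log2 difference was -0.41. Without PBS replicate 1, 5 were lower and 0 higher, where 4.24% and 0.398% of all genes were, and the median was -0.39, beside 0.05 over all genes. The lists did not move one way without that sample. The median of the other interferon-induced genes went from -0.39 to -0.65 and that of the type II interferon genes, which held 4 of the 7, from -2.98 to -3.25, while that of the ligands and receptors went from -0.26 to -0.11 and that of the regulatory factors from 0.36 to 0.16.

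Among the ligands, Ifnb1, the gene of interferon beta, had 71.5, 66.2 and 71.3 normalized counts in the PBS samples and 13.3, 20.9 and 39.0 in the IRF5-NP samples. It lay above the background in the 3 PBS samples and below it in the 3 IRF5-NP samples, and PBS replicate 1 did not stand apart from the other PBS samples. The log2 difference of the deposited values was -1.61 (standard error 0.45, limma adjusted p = 0.0644), which did not pass and is no measured size, since the IRF5-NP values are not above background. It was -1.58 (limma adjusted p = 0.283) without PBS replicate 1. With the negative controls subtracted and values floored at 1 it was -4.33 (limma adjusted p = 0.0319), a size and a call that the floor sets. Ifna1, an interferon alpha gene, exceeded the background in 1 sample. Of the receptor genes, Ifnar1 had 1836, 1252 and 1225 normalized counts in the PBS samples and 930, 999 and 860 in the IRF5-NP samples, a log2 difference of -0.70 (limma adjusted p = 0.0968). It was at -0.42 (limma adjusted p = 0.396) without PBS replicate 1, which was the highest sample here. Ifnar2 differed by 0.17 (limma adjusted p = 0.771), with overlapping groups.

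Among the negative regulators Socs1 and Socs3, which block cytokine receptor kinases, Socs3 passed as lower with a log2 difference of -1.03 (limma adjusted p = 0.038), and it was at -0.82 (limma adjusted p = 0.165) without PBS replicate 1. Its call was lost under 9 of the 18 alternatives, among them the common median, quantile normalization, and IRF5-NP replicate 2 or 3 left out. Socs1 had 55.0, 142 and 145 normalized counts in the PBS samples and 43.8, 61.7 and 33.8 in the IRF5-NP samples, with PBS replicate 1 low and within the IRF5-NP range and IRF5-NP replicate 3 below its background (-0.96, limma adjusted p = 0.244, and -1.65, limma adjusted p = 0.0993, with PBS replicate 1 left out). Among 8 sensors and adaptors, Tlr9, a receptor for DNA, passed as lower, with 231, 209 and 197 normalized counts in the PBS samples and 66.6, 89.3 and 80.5 in the IRF5-NP samples (-1.46, limma adjusted p = 0.0132). Without PBS replicate 1 it was at -1.36 (limma adjusted p = 0.0738). Tlr9 lost its call under 5 of the 18 alternatives.

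Of the interferon regulatory factors, 7 of 9 had a row and 0 passed in either direction. Irf7, which amplifies type I interferon production and is itself induced by interferon, had 391, 717 and 747 normalized counts in the PBS samples and 753, 1423 and 1723 in the IRF5-NP samples. PBS replicate 1 was the lowest sample, as for Isg15, Mx1 and Usp18. Every IRF5-NP sample lay above every PBS sample, however, as was the case for 17% of all genes. The log2 difference was 1.20 (standard error 0.40, limma adjusted p = 0.102), and 0.74 (limma adjusted p = 0.519) without PBS replicate 1. With array weights Irf7 passed as higher (1.40, limma adjusted p = 0.0234). Irf3 had 303, 424 and 433 normalized counts in the PBS samples and 545, 578 and 543 in the IRF5-NP samples, also without overlap (0.62, limma adjusted p = 0.122, and 0.37, limma adjusted p = 0.442, without PBS replicate 1). Irf5, the delivered gene, had 2573, 1991 and 1929 normalized counts in the PBS samples and 1960, 2358 and 2294 in the IRF5-NP samples. The groups overlapped, with a log2 difference of -0.03 (limma adjusted p = 0.947) whose sign turned with the common median (0.21) and with quantile normalization (0.33). The study describes the delivered mRNA as codon-optimized, and whether the Irf5 probe binds it was not tested.

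Among other interferon-induced genes, Cxcl10, a chemokine for T cells, had 163, 591 and 582 normalized counts in the PBS samples and 142, 77.2 and 96.1 in the IRF5-NP samples. PBS replicate 1 was close to IRF5-NP replicate 1 but above all IRF5-NP samples, so that the groups did not overlap, with all PBS samples on top as in 20.4% of all genes. The log2 difference was -1.59 (limma adjusted p = 0.0934) with all samples and -2.52 (limma adjusted p = 0.0172) without PBS replicate 1. With PBS replicate 1 kept, Cxcl10 also passed with 6 separate samples (-1.90, limma adjusted p = 0.0393) and with array weights (-1.81, limma adjusted p = 0.0313). It did not pass under the other 15 alternatives. Tap1, a peptide transporter of antigen presentation, passed as lower with -0.79 (limma adjusted p = 0.0459) and was at -0.89 (limma adjusted p = 0.0869) without PBS replicate 1. It lost its call under 10 of the 18 alternatives, among them each IRF5-NP sample left out, the common median and quantile normalization. From the list of type II interferon genes 6 had a row, and 4 passed as lower with all samples, where 7.03% of all genes did, and also without PBS replicate 1, where 4.24% did. H2-Aa, an MHC class II gene, had 45667, 62010 and 60759 normalized counts in the PBS samples and 7648, 6067 and 5917 in the IRF5-NP samples, which lay far apart. Its log2 difference was -3.03 (limma adjusted p = 0.000929) with all samples and -3.24 (limma adjusted p = 0.00595) without PBS replicate 1. The others were H2-Ab1 and H2-Eb1, of the same class, and the chemokine Cxcl9. Ifng, the gene of the type II interferon itself, lay below the background in every sample. No test of the difference between these genes and the members was made.

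**Figure D5:**
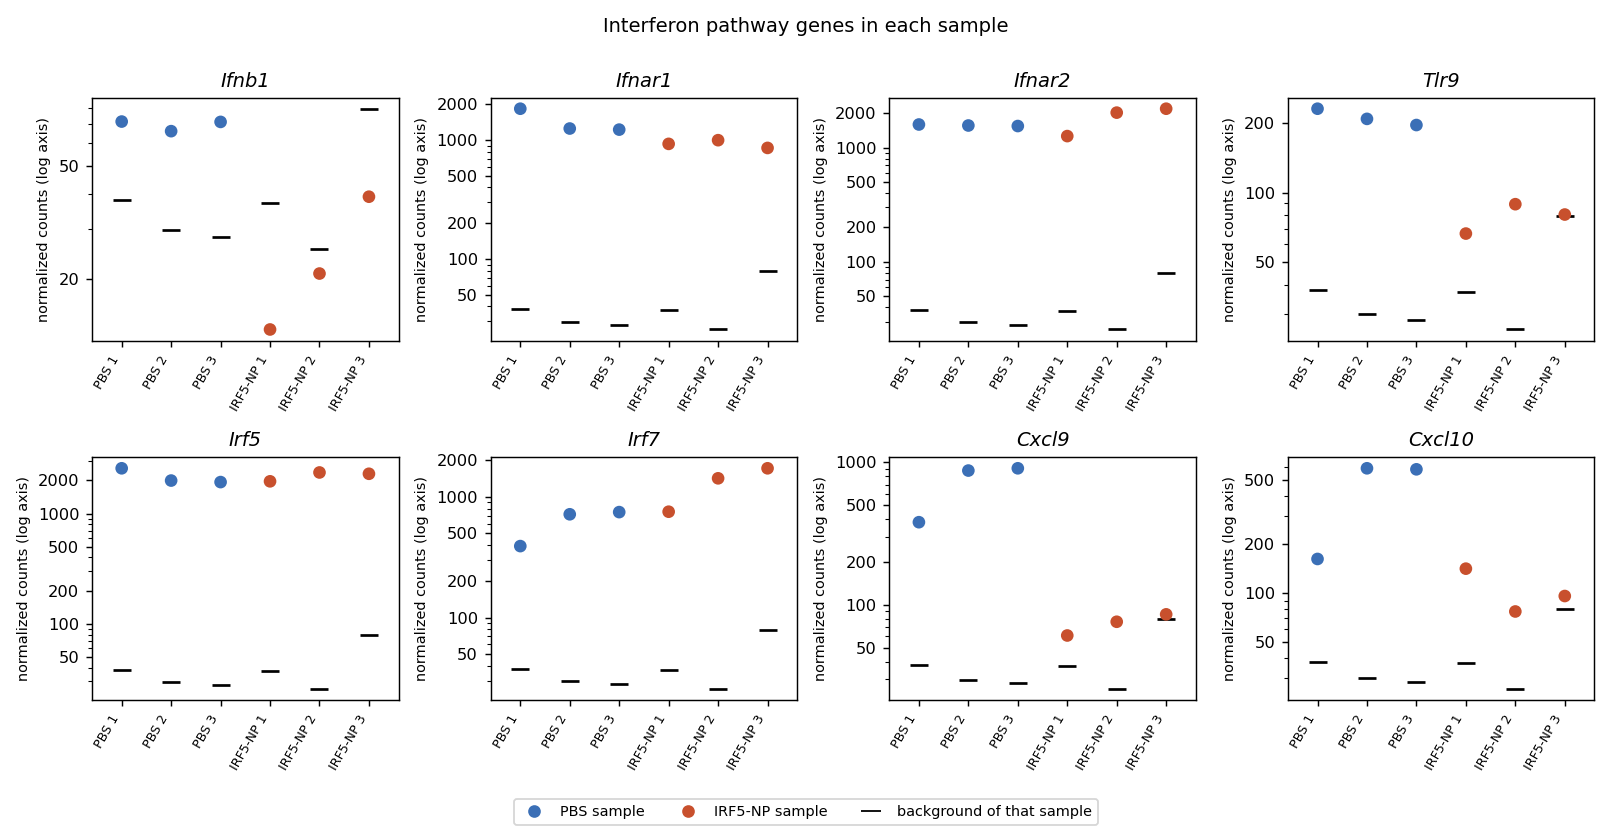
Normalized counts (log axis) of 8 interferon pathway genes in each PBS and IRF5-NP sample, with the background of each sample as a dash. Irf7 has its lowest value in PBS replicate 1, at 391, whereas Ifnb1 lies at 66.2 to 71.5 in all 3 PBS samples and below the background in the IRF5-NP samples.

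The genes with the most similar pattern over the 6 samples were sought among the 479 genes outside the rule that lay above the background in every sample. The measure was the mean absolute distance between log2 profiles, each centered on its own mean, from the mean profile of Isg15, Mx1 and Usp18. Among the 8 closest were Il1rn at 0.444, Cxcl10 at 0.451, H2-Ob at 0.463, Ly6c1 at 0.469, Itgal at 0.518, Fpr2 at 0.567 and Psmb9 at 0.582 log2 units. In each of these genes PBS replicate 1 lay above every IRF5-NP sample, as all PBS samples did in 20.4% of all genes. Itgal had 401 normalized counts in PBS replicate 1 and 146, 152 and 166 in the IRF5-NP samples. For Isg15, Mx1 and Usp18, in contrast, PBS replicate 1 lay below every IRF5-NP sample. Cxcl10 and Psmb9, a subunit of the immunoproteasome, are on the list of interferon-induced genes. Il1rn encodes the antagonist of the interleukin-1 receptor, and Itgal an integrin of leukocytes. Il1rn passed as lower with all samples (-1.25, limma adjusted p = 0.0360), as did Itgal (-1.80, limma adjusted p = 0.00844) and 7.03% of all genes. Without PBS replicate 1, Il1rn was at -1.65 and Itgal at -2.23. Both genes were picked by their profile over these same samples, which favors such differences, so that these values are no independent support. With 6 samples the likeness is a description.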

How the data were processed

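The deposited unit is a signal, the normalized NanoString count on a linear scale. For cultured macrophages, the methods state that the authors passed raw counts through NanoStringQCPro and scaled them in nSolver 4.0 by the geometric mean of housekeeping genes. A log2 step that they name was not applied to the deposited values. Divided by 1 factor per sample, the gene values came out whole (754 of 754 genes, tolerance 0.01 normalized counts). The recovered counts gave the depth, the chi-square tests and the background.

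All 754 genes were fitted with limma 3.58.1 in R 4.3.3 (lmFit and eBayes, the latter with trend). The fit used log2 of the value plus 1, and two-sided p-values were adjusted by Benjamini and Hochberg's method over all genes, at 0.05. The fit held 5 samples, 2 PBS and 3 IRF5-NP, and 18 alternatives were run. The members and lists were chosen with earlier results of these data known. Every member was named, as were pathway genes past the threshold with or without PBS replicate 1, and the ligands, receptors, Irf7 and delivered genes that had a row, except for 1 gene that is not reported here. Other genes, such as Socs1, Irf3 and those in the order of the PBS differences, were picked after their values were seen. All 6 members matched RefSeq by symbol. The fit was tested on simulated data with the fit's own spread, in which 200 randomly picked genes were changed. With all 5 samples it recovered 47.5% of them at a true log2 difference of 1 and 96.5% at 2. These shares are over genes of every spread, and a member changed by a log2 difference of 1 could be missed.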

Additional observations from a re-analysis of the deposited data

How the results depend on the processing

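The number of members past the threshold was 0 in either direction under every alternative run except without PBS replicate 1, where 3 were lower, a range of 0 to 3 over the samples left out. The median of the members ranged from -1.68 without PBS replicate 1 to -0.62 over the samples left out. Usp18 (0.21) turned to -0.22 with 6 separate samples, to -0.22 with these and a replicate block, and to -1.09 without PBS replicate 1, and ranged from -1.09 to 0.25 over the samples left out. Ifit1bl2 (-0.14), below the background, turned to 0.20 without IRF5-NP replicate 2 and to 0.0954 with a common median, and ranged from -0.37 to 0.20 over the samples left out. Irf5 (-0.03) turned to 0.0339 with 6 separate samples, to 0.0339 with the replicate block and to 0.0335 with array weights, to 0.16 without PBS replicate 1, to 0.05 without IRF5-NP replicate 1, to 0.21 with a common median and to 0.33 with quantile normalization, and ranged from -0.0825 to 0.16 over the samples left out. The lower pathway genes (7) were 5 to 7 over the samples left out and 0 with the methods' t-test under either adjustment. That test passed 0 of all 754 genes after adjustment (125 at an unadjusted p under 0.05), so that its counts of 0 say nothing particular of the members or the pathway genes. The higher pathway genes (0) were 1 with the replicate block, with a block of the samples numbered 1 and with array weights, which was Irf7, and 1 with a common median, which was Irf3. Ifnb1 passed under 6 of the 18 alternatives. For these changes the cause was not tested. The samples were treated as not paired, since the labels give them only a number in common. Their deviations from the group means correlated by 0.158, 0.178 and 0.0953 for numbers 1, 2 and 3. Between samples of different numbers the correlations ran from -0.167 to 0.144, so that a pairing is neither shown nor excluded. The block changed no call among the members. A count test on the recovered counts was not run: the check set for such a test takes the smallest value of a sample as 1 count, and the smallest gene values of IRF5-NP replicates 1, 2 and 3 were 3, 4 and 2 counts. With background subtraction Ifit1bl2 was at the floor in every sample.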
